A study of Homo sapiens with 7 samples.

Results

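The TNF receptor superfamily was examined through 10 of its genes in MDA-MB-231, a human cell line of triple-negative breast cancer with a mesenchymal character. They are TNFRSF1A, TNFRSF1B, TNFRSF10A, TNFRSF10B, TNFRSF10D, TNFRSF11B, TNFRSF12A, TNFRSF21, FAS and LTBR, and they make up 10 of the 57773 rows of the gene table. Rows were taken by symbol, with no threshold on a value, but the genes were chosen by their levels and their log2 fold changes of KD against parent, the comparison reported here. Their differences between the groups, and the p-values beside them, therefore describe where each gene stood in a fit over all genes and support no claim about the family. The series concerns APE1 (apurinic/apyrimidinic endonuclease 1, gene APEX1), a base excision repair enzyme that also acts on transcription factors, and its binding to G-quadruplexes, folded structures of guanine-rich DNA. RNA-seq libraries came from a group labelled KD (n = 2) and a group labelled parent (n = 3), all of the same line. The labels do not spell out KD, do not say whether it is 1 clone or a pool, and attach 1 protocol to all samples: APE1-knockout cells transduced with lentiviruses for doxycycline-inducible wild-type or mutant APE1, under blasticidin selection. They do not say which of these steps, or whether doxycycline, applied to either RNA-seq group.

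Most receptors of this family are type I membrane proteins, or soluble forms of them, that bind trimeric ligands through cysteine-rich domains. Those with a cytoplasmic death domain can recruit TRADD or FADD and, through caspase-8, start apoptosis. Those without one recruit TRAF proteins and activate NF-kB and JNK signalling, and decoy receptors bind ligand without passing on a death signal. In breast cancer cells the family is best known for TRAIL-induced death and for TNF-driven inflammatory signalling.

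Depth was similar between the groups, at 14677006 and 15502425 counts in KD and 14601078 to 18049386 counts in parent, so that 1 count was worth 0.0559 to 0.0683 CPM (counts scaled to library size). APEX1 (ENSG00000100823) had 640 and 753 counts in KD and 1936, 1936 and 2413 counts in parent. Each KD library was below every parent library, which does not settle what KD stands for. Of the markers of the line, VIM, CD44, EGFR and AXL were detected in each library, with CD44 (1994 CPM in KD, 2527 CPM in parent) and AXL (1265 and 1580 CPM) lower in KD at edgeR adjusted p values of 0.00951 and 0.0296. ESR1 was at 0 in all 5, and PGR had 2 counts in 1 library. CDH1 was 2.19-fold higher in KD, at 7.70 CPM against 3.51 CPM (edgeR adjusted p = 0.00587). EPCAM stood at 9.71 CPM in KD and 12.3 CPM in parent, and GATA3, a luminal transcription factor, was detected at 36.2 and 34.1 CPM. Of the immune markers, PTPRC and CD3E were at 0 throughout, and the summed level of CD68 and CD14, most of it CD68, was 132.9 to 135.2 CPM in KD and 104.7 to 125.2 CPM in parent. Of 3 fibroblast markers, DCN was at 0 throughout, and the summed level of COL1A1 and PDGFRB was 83.6 to 97.2 CPM in KD and 49.7 to 70.9 CPM in parent. CD14 was lower (8.42 CPM in parent, 5.12 CPM in KD) and PDGFRB higher (38.1 and 65.7 CPM). The endothelial markers VWF and CDH5 had 0 counts and at most 8 counts. The part of these markers in the results below was not tested. In bulk RNA, a lower level per cell and fewer cells that carry a transcript cannot be told apart.

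The 10 receptors all passed the filter on low counts. Of these, 4 were lower in KD at an adjusted p under 0.05 in the edgeR quasi-likelihood test over all genes and 0 were higher. Of all 16198 genes tested, 21.5% passed, 12.4% lower and 9.15% higher. The 4 were TNFRSF1B, TNFRSF10A, TNFRSF10B and TNFRSF11B. By role, 2 of 5 receptors with a death domain, 1 of 3 TRAF-binding receptors without one and 1 of 2 decoy receptors were lower. The median log2 fold change of the 10 was -0.22, against 0.000845 over all genes tested. KD and parent libraries did not overlap for 6 receptors lower in KD and 2 higher in KD. Among all genes tested the groups did not overlap for 51.4%, with 26.1% lower and 25.3% higher. The authors' deposited table, from DESeq2, also had an adjusted p under 0.05 for 4 of the 10, the same genes, and for 13.6% of the 19816 genes it gives an adjusted p. The 3485 genes that passed became 1823 when KD replicate 1 was left out, 2076 when KD replicate 2 was, and 2029 when parent replicate 2 was.

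**Figure D1:**
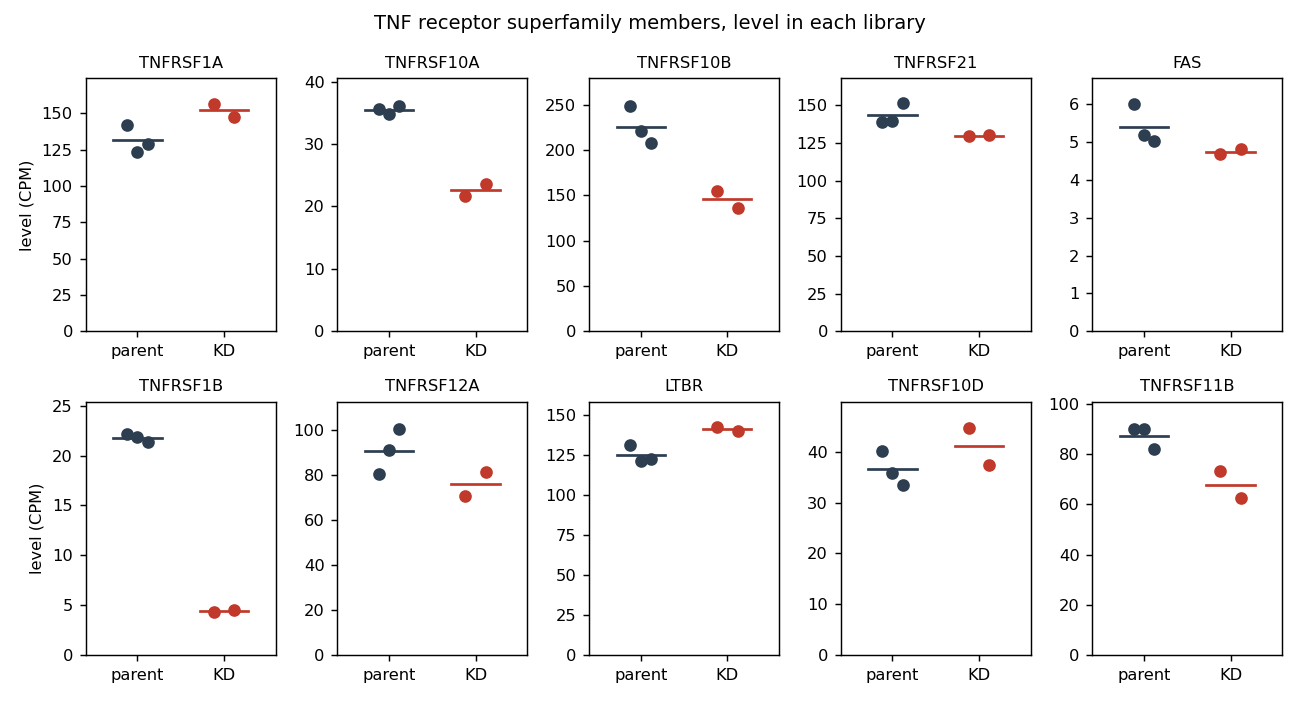
Level of each of the 10 receptors in CPM (vertical axes, each starting at 0) in the 3 parent and 2 KD libraries. Each point is 1 library and each bar the group mean. TNFRSF1B falls from 21.4 to 22.2 CPM in parent to 4.27 and 4.55 CPM in KD, and TNFRSF10A and TNFRSF10B also separate by group, while the groups overlap for TNFRSF10D and TNFRSF12A.

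Of the receptors for TNF, TNFRSF1B passed the test and TNFRSF1A did not. TNFRSF1B encodes TNFR2, the TNF receptor that lacks a death domain, binds TRAF2 and responds best to membrane-bound TNF. It stood at 4.27 and 4.55 CPM in KD replicates 1 and 2 and at 22.2, 21.9 and 21.4 CPM in parent replicates 1, 2 and 3. Every KD library was far below every parent library, and replicates of a group lay close together. The level was 4.41 ± 0.201 CPM (SD, n = 2) in KD and 21.8 ± 0.385 CPM (SD, n = 3) in parent, a 4.94-fold fall with a log2 fold change of -2.30 ± 0.0984 (SE, edgeR adjusted p = 4.19e-05). Its fold change lay at percentile 2.28 of all genes tested, counted from the lowest. The authors' deposited table gives a log2 fold change of -2.32 with a standard error of 0.206 for it.

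TNFRSF1A encodes TNFR1, the death domain receptor that recruits TRADD and RIPK1 and carries most responses to soluble TNF. It stood at 156.6 and 147.4 CPM in KD and at 142.1, 123.6 and 129.1 CPM in parent. Both KD libraries lay above the parent libraries, but by less than the test required (log2 fold change 0.21 ± 0.0699 SE, 95% interval 0.04 to 0.37, edgeR adjusted p = 0.0796). Without parent replicate 1 the edgeR adjusted p was 0.0285, within 0.0285 to 0.343 over 10 alternatives. Within each library, TNFRSF1B had 2.72 and 3.09 counts per 100 counts of TNFRSF1A in KD, and 15.6, 17.7 and 16.6 in parent. That ratio does not depend on library scaling and was 5.72-fold lower in KD.

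The promoters of both TNF receptor genes are shown because these genes share a ligand, and 1 of them passed the test. The sequences are the 250 bases before the RefSeq start in GRCh38.p14, chr1:12166741-12166990 on the plus strand for TNFRSF1B and chr12:6342077-6342326 on the minus strand for TNFRSF1A. Capitals mark GGGCGG or its reverse complement, the GC box bound by SP1-type factors. The deposited counts use hg19, so these coordinates do not carry over to the count table.
TNFRSF1B: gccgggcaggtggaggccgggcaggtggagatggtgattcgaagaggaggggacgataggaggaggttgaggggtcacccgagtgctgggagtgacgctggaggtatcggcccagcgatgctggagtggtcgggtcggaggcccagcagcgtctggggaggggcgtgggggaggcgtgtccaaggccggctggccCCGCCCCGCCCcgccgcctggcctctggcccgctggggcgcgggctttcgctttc
TNFRSF1A: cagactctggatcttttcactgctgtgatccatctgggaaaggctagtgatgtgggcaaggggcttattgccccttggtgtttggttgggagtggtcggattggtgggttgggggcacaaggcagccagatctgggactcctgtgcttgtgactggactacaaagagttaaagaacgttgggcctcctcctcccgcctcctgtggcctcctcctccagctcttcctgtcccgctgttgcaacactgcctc
The TNFRSF1B window held 2 overlapping matches, the farther starting 55 bases before the start, and the TNFRSF1A window held 0. Of 35093 promoter windows of the same length, 42.6% held the GC box on either strand. LTBR, TNFRSF21 and FAS did not pass the test and also had it. The LTBR window held 4 matches, that of TNFRSF21 held 1, and the 3 FAS windows held 1, 1 and 2. The GC content was 72.4% for TNFRSF1B and 56.8% for TNFRSF1A. A G-quadruplex motif, taken as 4 runs of at least 3 G separated by 1 to 7 bases on either strand, was found in 23.4% of all windows. It was in neither of these, nor in that of TNFRSF21, whereas the LTBR window held 3 and 1 of the 3 FAS windows held 1. Of the 10 receptors, 5 had an entry in the promoter table, and TNFRSF10A, TNFRSF10B and TNFRSF11B, which passed, were not among them. A match describes letters in a window and is no evidence of binding.

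TRAIL receptors came next. TNFRSF10A (DR4) and TNFRSF10B (DR5) are the death receptors for TRAIL, TNFRSF10D (DcR2) is a decoy with a truncated death domain, and all lie in 1 cluster on chromosome 8. TNFRSF10A stood at 21.7 and 23.7 CPM in KD and at 35.6, 34.8 and 36.1 CPM in parent. The groups were well apart, and the gene was 1.56-fold lower in KD (log2 fold change -0.64 ± 0.0665 SE, edgeR adjusted p = 0.001). TNFRSF10B stood at 154.6 and 136.5 CPM in KD and at 248.2, 220.7 and 207.4 CPM in parent. The lowest parent library was still above the highest KD library, and the gene was 1.55-fold lower (log2 fold change -0.63 ± 0.0907 SE, edgeR adjusted p = 0.00386). Both genes kept an adjusted p under 0.05 in all 10 alternatives, with a highest value of 0.0124 for TNFRSF10A and 0.0333 for TNFRSF10B.

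The decoy TNFRSF10D stood at 44.8 and 37.5 CPM in KD and at 40.2, 35.9 and 33.6 CPM in parent. Its groups overlapped, with a log2 fold change of 0.17 ± 0.107 (SE, 95% interval -0.09 to 0.42, edgeR adjusted p = 0.314). The difference between the fold changes of the death receptors and the decoy was not tested. Within libraries, TNFRSF10B had 345.4 and 364.1 counts per 100 counts of TNFRSF10D in KD, and 616.7, 614.3 and 617.6 in parent. The parent libraries were almost equal in this ratio, and it was 1.74-fold lower in KD. TNFRSF10A had 48.6 and 63.1 counts per 100 of TNFRSF10D in KD, and 88.4, 96.8 and 107.5 in parent, 1.75-fold lower. Against each other the 2 death receptors had overlapping ratios. TNFRSF10A had 15.7 ± 2.31 counts per 100 of TNFRSF10B in KD and 15.8 ± 1.53 in parent. A change smaller than that spread could not be seen, and the ratio was not tested. The TRAIL receptor genes resemble each other in sequence, and how shared reads were divided is not given in the sources used here, so their counts carry that uncertainty.

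**Figure D2:**
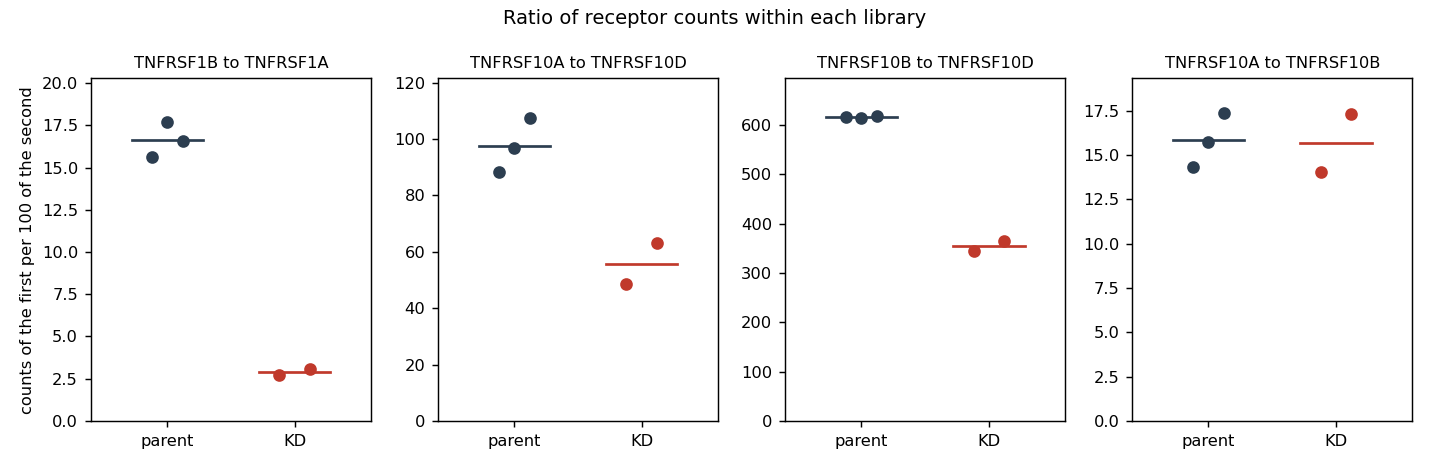
Counts of 1 receptor gene per 100 counts of another (vertical axes from 0) within each of the 3 parent and 2 KD libraries. Points are libraries and bars group means. TNFRSF1B against TNFRSF1A and both death receptors against TNFRSF10D are lower in both KD libraries, and TNFRSF10A against TNFRSF10B overlaps between the groups.

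Among the other receptors with a death domain, FAS, the receptor that forms a death-inducing complex with FADD and caspase-8, had few counts. It had 69 and 75 counts in KD and 94, 76 and 90 counts in parent, or 4.67 and 4.81 CPM against 6.0, 5.19 and 5.03 CPM. Both KD libraries lay just under the parent libraries, with a log2 fold change of -0.19 ± 0.150 (SE, edgeR adjusted p = 0.424). The 95% interval was -0.55 to 0.17. TNFRSF21 (DR6), a death receptor studied mostly in neurons and lymphocytes, stood at 129.3 and 129.9 CPM in KD and at 138.9, 139.6 and 151.4 CPM in parent. Its groups did not overlap, but the log2 fold change of -0.15 ± 0.0558 (SE, 95% interval -0.28 to -0.01) had an edgeR adjusted p of 0.114.

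TRAF-binding receptors without a death domain, besides TNFRSF1B, were LTBR and TNFRSF12A. LTBR, the lymphotoxin beta receptor, feeds the non-canonical NF-kB pathway through TRAF3 and the kinase NIK. It stood at 142.3 and 139.5 CPM in KD and at 131.1, 121.2 and 122.2 CPM in parent. The KD libraries were above the parent libraries, by a log2 fold change of 0.17 ± 0.0540 (SE, 95% interval 0.05 to 0.30, edgeR adjusted p = 0.0621). LTBR passed without parent replicate 1 (adjusted p = 0.0372) and with library totals in place of TMM factors (0.0380), within 0.0372 to 0.270 over 10 alternatives. TNFRSF12A, the TWEAK receptor Fn14, stood at 70.4 and 81.3 CPM in KD and at 80.4, 90.8 and 100.5 CPM in parent. The groups overlapped, with a log2 fold change of -0.26 ± 0.108 (SE, 95% interval -0.51 to 0.00125, edgeR adjusted p = 0.143). Without parent replicate 1 the adjusted p was 0.0480, within 0.0480 to 0.497.

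TNFRSF11B encodes osteoprotegerin, a secreted decoy for RANKL that also binds TRAIL. It stood at 73.3 and 62.4 CPM in KD and at 89.9, 90.2 and 82.0 CPM in parent. Both KD libraries were below the parent libraries, and the gene was 1.29-fold lower (log2 fold change -0.36 ± 0.0878 SE, edgeR adjusted p = 0.0273). Of the 4 receptors that passed, this was the one whose call was lost in some alternatives: without KD replicate 2 (adjusted p = 0.120), parent replicate 1 (0.0523) or parent replicate 2 (0.0965), within 0.00356 to 0.120.

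**Figure D3:**
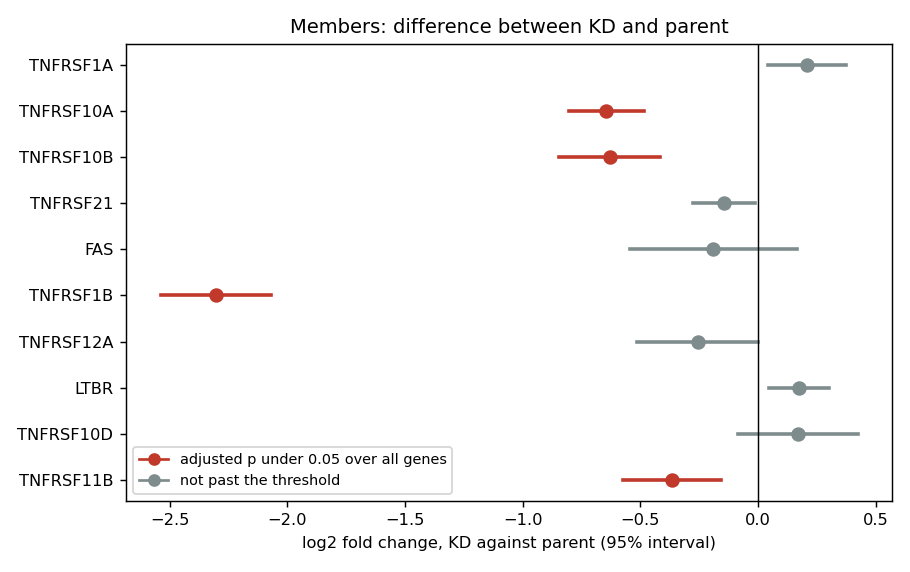
Log2 fold change of KD against parent (horizontal axis) for the 10 receptors, with 95% intervals from the edgeR fit. Red marks the 4 genes with an adjusted p under 0.05 over all genes, with TNFRSF1B at -2.30 and TNFRSF10A, TNFRSF10B and TNFRSF11B between -0.64 and -0.36, and the other 6 lie between -0.26 and 0.21.

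The other 19 receptors of the superfamily were present in the table but mostly low. Of these, 9 did not pass the filter on low counts, 5 of them at 0 in all 5 libraries, and the highest group mean among the 9 was 0.599 CPM. Of the 10 tested, 3 were lower and 1 higher in KD, with a median log2 fold change of 0.19. Over all genes tested the shares were 12.4% lower and 9.15% higher. TNFRSF11A, which encodes RANK, the signalling receptor for RANKL, had 2 and 4 counts in KD and 106, 104 and 135 counts in parent. The ratio of summed counts was 36.3-fold lower in KD, with a counting interval of 16.5-fold to 99.5-fold, and the fitted log2 fold change was -5.12 ± 0.269 (SE, edgeR adjusted p = 7.26e-05). NGFR, the low-affinity neurotrophin receptor, had 40 and 32 counts in KD and 109, 93 and 122 in parent, 2.82-fold lower (edgeR adjusted p = 0.00175). TNFRSF10C, a membrane-anchored TRAIL decoy, had 27 and 15 counts against 66, 50 and 59, 2.61-fold lower (edgeR adjusted p = 0.0194). That call was lost without KD replicate 2 (0.0785) and without parent replicate 2 (0.0551), within 0.0107 to 0.0785. Without KD replicate 2 the other receptors that passed numbered 2 in place of 4.

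TNFRSF8, which encodes the lymphoma antigen CD30, was the 1 receptor higher in KD. It had 37 and 40 counts in KD and 0, 7 and 8 counts in parent, 7.99-fold higher in the fit (edgeR adjusted p = 0.0183). The call was lost without KD replicate 1 (0.0883) or KD replicate 2 (0.0873), within 0.00279 to 0.0883. CD40, another TRAF-binding receptor, stood at 44.6 ± 2.11 CPM in KD against 40.2 ± 2.23 CPM in parent (adjusted p = 0.197 by edgeR), and was chosen for naming after its values were seen. With the 10 above, 20 of 29 receptors were tested, 7 lower and 1 higher, beside 12.4% lower and 9.15% higher of all genes tested. The 10 were chosen by their fold changes, so these counts support no claim about the family. TNFRSF6B shares its locus with a read-through row of RTEL1, and its count, at most 5 in a library, is uncertain.

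The promoter of TNFRSF11A is shown because it had the largest fall of the tested receptors and its window held a G-quadruplex motif, in capitals, 38 bases long and starting 93 bases before the start. It covers chr18:62325060-62325309 on the plus strand of GRCh38.p14, from RefSeq. The motif is a match of letters, and the APE1 chromatin samples of the series were not analysed here. Of all promoter windows, 23.4% held such a motif. Among receptors that did not pass, windows of TNFRSF9, TNFRSF25, RELT and LTBR also held it, as did some of FAS and TNFRSF19. Those of TNFRSF1A, TNFRSF21 and TNFRSF14 did not, nor did those of TNFRSF1B and TNFRSF8, which passed. The relation of the motif to the fold changes was not tested.
TNFRSF11A: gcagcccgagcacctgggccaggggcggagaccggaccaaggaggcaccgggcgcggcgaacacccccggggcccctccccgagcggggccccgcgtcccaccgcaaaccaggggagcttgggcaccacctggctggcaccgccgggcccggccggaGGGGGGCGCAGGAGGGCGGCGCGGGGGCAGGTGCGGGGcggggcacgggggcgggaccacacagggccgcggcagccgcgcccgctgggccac

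Ligands of the family were few in these cells. Of 18 ligand genes, 7 were tested, 6 were at 0 in all libraries, and 1 passed, lower in KD. Over all genes tested, 21.5% passed. FASLG and TNFSF11 (RANKL) were listed at 0 in each library, and TNF had 1 and 1 counts in KD and 3, 3 and 2 in parent, too few to compare. Leaving out parent replicate 1 gave 2 ligands. TNFSF15 (TL1A), the ligand of TNFRSF25, had 3 and 0 counts in KD and 702, 658 and 681 counts in parent. The ratio of summed counts was 428.9-fold lower in KD, with a counting interval of 146.5-fold to 2081-fold (edgeR adjusted p = 2.89e-05). Without KD replicate 2 it was 208.6-fold (71.3-fold to 1012-fold), and without KD replicate 1, where the remaining KD library had 0 counts, at least 220.3-fold against a floor of 3 counts in that library. TNFSF10 (TRAIL), the ligand of TNFRSF10A, TNFRSF10B and TNFRSF10D, varied within groups, at 151.3 and 103.9 CPM in KD and 191.3, 138.1 and 103.5 CPM in parent (edgeR adjusted p = 0.683). TNFSF12 (TWEAK), the ligand of TNFRSF12A, stood at 30.8 ± 1.55 CPM in KD against 31.7 ± 3.42 CPM in parent (adjusted p = 0.836 by edgeR). Its gene overlaps a read-through row of TNFSF12 and TNFSF13, so its count is uncertain. LTB, a subunit of the LTBR ligand, stood at 2.25 ± 0.739 CPM in KD against 1.14 ± 0.393 CPM in parent (adjusted p = 0.0986 by edgeR). The ligands other than TNFSF15 named here were chosen because they bind the 10 receptors.

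Transcripts of proteins that bind the receptors inside the cell were lower in 2 of 13 tested cases and higher in 0, with a median log2 fold change of 0.08. Over all genes tested, 12.4% were lower and 9.15% higher. BIRC3 (cIAP2), a ubiquitin ligase held at TNF receptors by TRAF2, stood at 29.3 and 27.9 CPM in KD and at 161.1, 155.3 and 144.7 CPM in parent, 5.38-fold lower (edgeR adjusted p = 1.17e-05). TRAF1, a TRAF protein that binds TNFRSF1B together with TRAF2, stood at 20.1 and 21.0 CPM in KD and at 40.2, 42.7 and 44.8 CPM in parent, 2.07-fold lower (edgeR adjusted p = 0.000234). Both had groups far apart and kept their calls in all 10 alternatives. Of the 11 adaptors that did not pass, BIRC2, the close relative of BIRC3, stood at 137.1 ± 0.483 CPM in KD against 143.1 ± 10.3 CPM in parent (adjusted p = 0.569 by edgeR). TRAF2 stood at 56.9 ± 0.627 and 53.7 ± 0.832 CPM (edgeR adjusted p = 0.374). BIRC2 and TRAF2 were chosen after their values were seen, as partners of the genes that fell.

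Of 11 tested genes of the death-inducing complex, caspases and necroptosis, 2 fell and 0 rose, with a median log2 fold change of 0.07. Over all genes tested, 12.4% fell and 9.15% rose. CFLAR (c-FLIP), which blocks caspase-8 at death receptors, stood at 48.5 ± 0.254 CPM in KD and 63.6 ± 3.44 CPM in parent, 1.31-fold lower (edgeR adjusted p = 0.00973). MLKL, the effector of necroptosis, was 1.29-fold lower (edgeR adjusted p = 0.0285), while RIPK3, the kinase that activates it, had 1 count in 1 library. CFLAR missed the threshold without KD replicate 1 (0.0512) or KD replicate 2 (0.0508), within 0.000387 to 0.0512. MLKL kept its call on leaving out parent replicate 1, but not KD replicate 1 (0.167), KD replicate 2 (0.0540), parent replicate 2 (0.0935) or parent replicate 3 (0.0741). It also lost it with DESeq2 (0.0724) and on unfiltered genes (0.0511), in a range of 0.0316 to 0.167. The count was 0 without either KD library and 1 without parent replicate 2 or parent replicate 3. CASP8 stood at 40.8 ± 1.44 CPM in KD against 38.9 ± 1.25 CPM in parent (adjusted p = 0.483 by edgeR), chosen after its values were seen.

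Kinases and ubiquitin enzymes between the receptors and NF-kB or JNK moved both ways, with 5 lower and 3 higher of 16 tested. Their median log2 fold change was -0.02. Over all genes tested, 12.4% were lower and 9.15% higher. MAP3K14 (NIK), the kinase of the non-canonical NF-kB pathway, stood at 22.8 and 24.4 CPM in KD and at 57.2, 57.1 and 63.1 CPM in parent, 2.50-fold lower (edgeR adjusted p = 0.000125). MAP3K14 has an antisense gene in the table, and the use of strand is not given, so reads of the pair cannot be told apart. MAP3K5 (ASK1), a kinase upstream of JNK and p38, was 1.83-fold lower (edgeR adjusted p = 0.00513). The deubiquitinases CYLD and FAM105B (OTULIN), which restrain the receptor complex, were 1.38-fold and 1.26-fold lower (edgeR adjusted p = 0.00253 and 0.0336), and the A20 partner TNIP1 was 1.17-fold lower (edgeR adjusted p = 0.0183), at 699.8 ± 19.6 CPM in KD and 820.2 ± 22.4 CPM in parent. SHARPIN and RNF31, subunits of the linear ubiquitin ligase, were 1.26-fold and 1.24-fold higher (edgeR adjusted p = 0.0359 and 0.0396), and TNFAIP3 (A20) was 1.25-fold higher (0.0421).

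MAP3K14, MAP3K5 and CYLD kept their calls in all 10 alternatives, and the small changes did not. SHARPIN, RNF31 and TNFAIP3 each missed the threshold without KD replicate 1 (adjusted p = 0.113, 0.128 and 0.218), KD replicate 2 (0.142, 0.197 and 0.107), parent replicate 2 (0.112, 0.0987 and 0.121) or parent replicate 3 (0.0865, 0.0788 and 0.0990). On unfiltered genes the values were 0.0575, 0.0924 and 0.0872, and with DESeq2 RNF31 and TNFAIP3 had 0.0829 and 0.0781. Their ranges were 0.0108 to 0.142, 0.0267 to 0.197 and 0.0196 to 0.218. FAM105B lost its call on unfiltered genes (0.0583) and on leaving out KD replicate 1 (0.180), parent replicate 2 (0.106) or parent replicate 3 (0.0786), in a range of 0.0127 to 0.180. TNIP1 missed it without KD replicate 1 (0.0911) or parent replicate 2 (0.0502), within 2.95e-05 to 0.0911. The 8 genes that passed became 3 on leaving out KD replicate 1 or parent replicate 2, 5 on leaving out KD replicate 2, and 4 on leaving out parent replicate 3.

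Of the 5 genes that govern shedding of the receptors from the cell surface, 1 fell, beside 12.4% of all genes tested. TIMP3, the tissue inhibitor that blocks the sheddase ADAM17, stood at 13.0 and 11.5 CPM in KD and at 224.7, 182.2 and 167.1 CPM in parent, 15.6-fold lower (edgeR adjusted p = 3.56e-05). ADAM17, which releases both TNF receptors, stood at 101.3 ± 11.3 CPM in KD against 94.7 ± 6.38 CPM in parent (adjusted p = 0.485 by edgeR), named after its values were seen. Receptor protein at the surface and in the medium was not measured by these libraries.

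**Figure D4:**
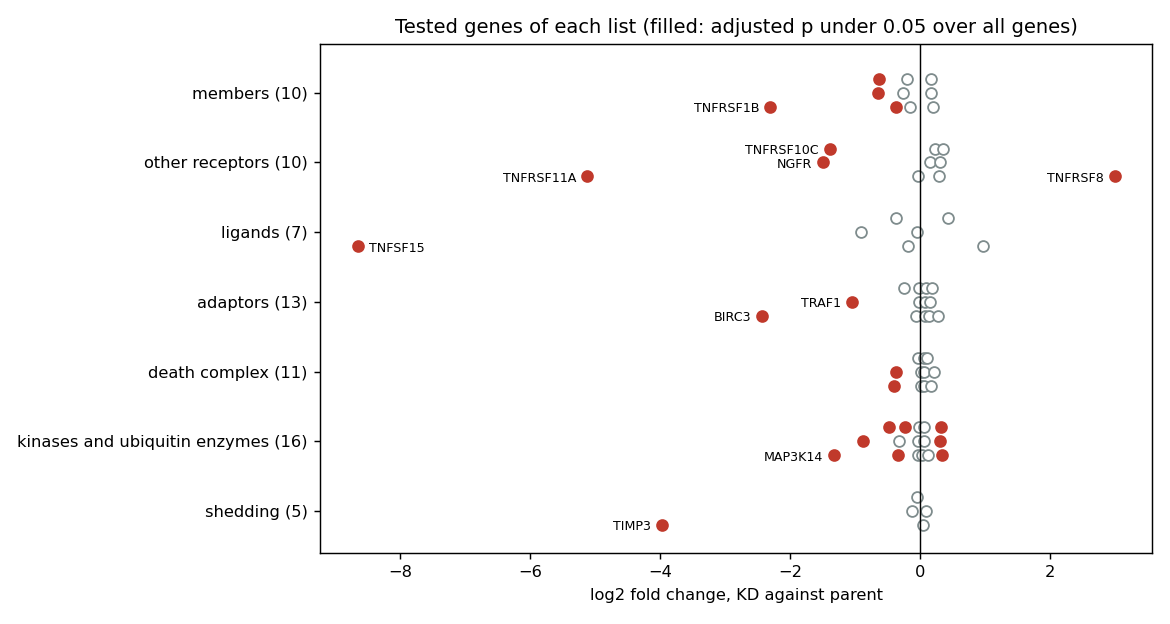
Log2 fold change of KD against parent (horizontal axis) for each tested gene of the 7 gene lists (rows, number tested in brackets). Filled points have an edgeR adjusted p under 0.05 over all genes, and those beyond 1 in size are named. TNFSF15 at -8.64, TNFRSF11A at -5.12 and TIMP3 at -3.97 lie farthest to the left, and TNFRSF8 at 3.00 farthest to the right.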

How the data were processed

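RNA-seq libraries of MDA-MB-231 (2 KD, 3 parent) were grouped by sample title. The authors deposited a gene table of expected counts in whole numbers, whose library totals equal those of a transcript table. STAR, DESeq2 and hg19 are named, without versions, in the submitters' processing notes. The sources used here give no counting tool, annotation or use of strand. The authors' deposited comparison gives, per the file headers, a mean signal (counts divided by size factors), log2 fold changes and their standard errors, a score (Wald statistic), a p-value and an adjusted p-value. The transcript table and 2 chromatin samples were not analysed here.

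Genes passing filterByExpr (minimum count 10, minimum total 15) were scaled by TMM. The test of KD against parent was quasi-likelihood in edgeR 4.0.16 under R 4.3.3, on group alone, with Benjamini-Hochberg adjustment over all genes tested, at a threshold of 0.05. Levels are CPM on TMM-scaled libraries, mean ± SD. A standard error is the log2 fold change divided by the root of F, and its 95% interval uses the degrees of freedom of the fit. Exact binomial counting intervals of 95% (scipy 1.17.1) cover counting error only. Whether replicates were separate cultures is not in the labels. The p-values then cover the spread between these libraries, which may be technical. The receptors, gene lists and tests were chosen with earlier results of these data known. Genes named are APEX1, the 10 receptors, up to 8 passing genes of each list and, for each receptor, the gene with a mean of at least 5 CPM that varied most like it. On simulated counts for this comparison (15922 genes, 200 changed), 74.6% of 1.5-fold, 97% of 2-fold and 100% of 4-fold changes were recovered. The simulation gave all genes 1 common dispersion (spread between replicates) and changed only genes with a mean of at least 2 CPM. Recovery in the data can therefore differ. Alternatives were DESeq2 1.42.0, no filter, library totals, upper-quartile factors, leaving out each library and the replicate number as a term. Promoters were read from RefSeq (GRCh38.p14). The value of 1 marker gene is not reported here.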

Additional observations from a re-analysis of the deposited data

How the results depend on the processing

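Of the genes run in the 10 alternatives, none changed the sign of its fold change. The marker genes, the chromosomal neighbours and the genes CD40, TNFSF10, TNFSF12, LTB, BIRC2, TRAF2, CASP8 and ADAM17 were not run singly. Receptors lower in KD numbered 4 with DESeq2, no filter, library totals, upper-quartile factors and the replicate block. When a parent library was left out they numbered 3 to 4. Leaving out parent replicate 1 kept the count at 4, but with TNFRSF12A (edgeR adjusted p = 0.0480) in place of TNFRSF11B (0.0523). Receptors higher in KD numbered 1 with library totals and 1 with the replicate block, against 0, and 0 to 2 when a library was left out. With no filter on low counts, 2 ligands, 1 gene of the death complex and 4 kinases and ubiquitin enzymes passed, and DESeq2 gave 1 gene of the death complex. Leaving out a library gave 1823 to 3383 genes over all, 2 to 4 other receptors, 1 to 2 ligands, 0 to 2 genes of the death complex and 3 to 8 kinases and ubiquitin enzymes. The causes were not tested. Replicate numbers are not said to pair libraries, and deviations of same-numbered libraries correlated at 0.0868 and -0.018 across genes. KD replicate 2 with parent replicate 1 gave -0.0868, and KD replicate 1 with parent replicate 2 gave 0.018. Deviations of 2 KD libraries from their mean mirror each other, so these values were fixed by the first and add no evidence on pairing. With the replicate block 3940 genes, 2 ligands and 4 adaptors passed, TNFRSF1A had an adjusted p of 0.0313, and SHARPIN lost its call (0.0546), which left 7 kinases and ubiquitin enzymes. The fold changes of TNFSF15, TNFRSF11A and TNFRSF8 rest on 0 to 8 counts in each library of their lower group.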

Other observations

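Values of receptor genes that lie side by side are given here, and no difference between neighbours was tested. By the order of protein-coding genes in RefSeq (names only), TNFRSF10B, TNFRSF10C, TNFRSF10D and TNFRSF10A follow each other on chromosome 8, with log2 fold changes of -0.63, -1.38, 0.17 and -0.64. TNFRSF10D did not pass the test (edgeR adjusted p = 0.314, 95% interval -0.09 to 0.42), and CHMP7 beyond TNFRSF10A had -0.09 ± 0.0699 (SE, edgeR adjusted p = 0.416). On chromosome 1, TNFRSF8 lies next to TNFRSF1B. The first was 7.99-fold higher, a call lost without either KD library (0.0883 and 0.0873), and the second 4.94-fold lower in KD. VPS13D on the other side of TNFRSF1B stood at 66.8 CPM in KD against 66.0 CPM in parent (adjusted p = 0.891 by edgeR). TNFRSF1A and LTBR lie on chromosome 12 with SCNN1A between them. TNFRSF1A had 110.0 and 105.7 counts per 100 counts of LTBR in KD and 108.3, 101.9 and 105.7 in parent, so this ratio overlapped between the groups. These neighbours were looked up after the values were seen.

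Likeness of pattern was measured as the root mean square difference of log2 CPM over the 5 libraries, each gene centred on its own mean, and many genes can lie this close over 5 libraries. The gene nearest to TNFRSF1B was HTRA1, a secreted serine protease, at 0.0447 and with 13.9 and 13.8 CPM in KD against 72.8, 67.4 and 66.9 CPM in parent. The nearest of the 10 receptors to TNFRSF1B was TNFRSF10A at 0.800. PHLDA1 was nearest to TNFRSF10A (0.00703), the membrane metalloprotease MMP14 to TNFRSF10B (0.0234) and the lysosomal enzyme GALC to TNFRSF11B (0.0206). For the receptors that did not pass, the nearest genes were MAN1B1 (TNFRSF1A), SERPINB6 (TNFRSF10D), NUP155 (TNFRSF12A), RGPD8 (TNFRSF21), DYRK4 (FAS) and TECR (LTBR), at 0.00855 to 0.0176. TNFRSF1A and LTBR were each other's nearest among the 10, at 0.0376.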
